A study of Rattus norvegicus with 9 samples.

Results

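The 7 genes described here are those of antibody secretion: Igha, the constant region of the IgA heavy chain, Jchain, the joining chain that links IgA and IgM into polymers, Mzb1 and Derl3, which act in the endoplasmic reticulum, Prdm1, the transcription factor Blimp-1, and the surface proteins Sdc1 (syndecan-1, CD138) and Tnfrsf17 (BCMA). They were chosen by symbol from the 41801 genes of the count tables, and all 7 were found. Single-cell libraries had been made with 10x Genomics chemistry from the osteotomy site at the proximal tibia of male Sprague-Dawley rats aged 6 to 8 weeks, all of which also carried a full-thickness skin wound on the foot of the same side. In the TO group the circular osteotomy, a bone flap cut with a trephine, was the only treatment of the bone. In the TOE group it was followed by radial extracorporeal shock waves (rESWT) on days 2 and 4. The TOE libraries of 2d were collected after the session of day 2 only, and those of 4d after both. The 8 libraries were TO 2d 0h, TO 2d 4h, TO 4d 4h, TO 4d 24h, TOE 2d 4h, TOE 2d 24h, TOE 4d 4h and TOE 4d 24h, named by arm, by the day of the session and by the hours after it. TO 2d 0h was the baseline taken before any shock wave, and TO 2d 24h was not analysed here. Each condition had 1 library, so TOE could be set beside TO only as pairs of libraries, 3 in all (2d 4h, 4d 4h, 4d 24h).

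Plasma cells are the end of the B cell lineage, and in bone marrow they can persist for long periods in niches where stromal and myeloid cells supply CXCL12, APRIL (Tnfsf13) and BAFF (Tnfsf13b). On the way there, Blimp-1 shuts off the B cell program, XBP1 enlarges the endoplasmic reticulum, and heavy and light chain transcripts come to make up a large share of the cell's RNA. The joining chain is added to IgA dimers and IgM pentamers in the secretory pathway, and its transcript is also known from earlier B lineage cells and from plasmacytoid dendritic cells. BCMA, the receptor of APRIL and BAFF, is largely restricted to plasma cells and late B cells, while syndecan-1 is also made by epithelial, stromal and myeloid cells and Blimp-1 by activated T cells, macrophages and endothelium.

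The libraries held 12451 to 17187 barcodes and 95954800 to 144146202 UMIs (unique molecular identifiers, each standing for 1 captured transcript), with a median of 4522 to 5668 UMIs per barcode. After a filter on cells and the removal of likely doublets, 111646 of 116711 barcodes were kept. Of the 115096 distinct barcode sequences, 1601 (1.39%) occurred in 2 or more libraries, and 4 of the 69 barcodes of the plasma-cell-like class did so. The level of a gene is its count scaled to CPM (counts per 1000000 UMIs) within the same cells, so it depends on what else the cells express. A UMI tags 1 transcript whatever its length, so levels were not divided by gene length. Intervals are 95% and cover counting error only. Those on UMIs take each UMI as a separate draw and do not cover the spread between cells. They are thus too narrow where few cells hold most of a gene's UMIs, as for Igha.

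Plasma cells were rare at the osteotomy site. The 7 genes and the immunoglobulin genes whose symbol starts with Igh, Igk or Iglc (41 genes in all) were left out of the clustering. Antibody genes without such a symbol, such as LOC120093161, LOC103692723 and LOC103690146, were not left out. The clustering gave 1 plasma-cell-like cluster, which raised 13 of 14 plasma cell markers outside the set, among them Xbp1, Slamf7 and Fkbp11, but not Cd38. A marker counted as raised at a log2 ratio of at least 1 to the median cluster, not to B cells. Other clusters raised fewer of the 14, such as 7 in an erythroid-like and 6 in the plasmacytoid-dendritic-cell-like cluster. The plasma-cell-like cluster held 69 cells, or 0.0618% of all cells (0.0481 to 0.0782), of which 56 had 10 or more Igha UMIs. The size depended on the processing, with 166 cells when doublets were kept (69 with 10 or more Igha UMIs). Taking all cells with at least 5 of the 7 genes, whatever their class, gave 198 (83 with 10 or more). No such cluster was found under a stricter filter on cells or, with the main random seed, at resolution 2. With another seed it was found at resolution 2, with 67 cells, all among the 69. By library the 69 cells numbered 15 in TO 2d 0h, 4 in TO 2d 4h, 4 in TO 4d 4h, 9 in TO 4d 24h, 15 in TOE 2d 4h, 8 in TOE 2d 24h, 13 in TOE 4d 4h and 1 in TOE 4d 24h. At 2d 4h the class made up 0.0914% of the TOE cells (0.0512 to 0.151) and 0.0268% of the TO cells (0.00731 to 0.0687). At 4d 4h the shares were 0.0970% (0.0516 to 0.166) in TOE and 0.0322% (0.00877 to 0.0824) in TO, and at 4d 24h they were 0.00833% (0.000211 to 0.0464) in TOE and 0.0648% (0.0296 to 0.123) in TO. The intervals of each pair overlapped, which is no comparison of the arms, and no test was run.

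The cells of the class were large, with a median of 15007 UMIs against 4881 over all cells kept. Of the 69 cells, 61 held Igha, 63 Jchain, 61 Mzb1, 57 each Derl3, Prdm1 and Tnfrsf17, and 25 Sdc1. As shares, Igha was found in 88.4% of them, Jchain in 91.3% and Sdc1 in 36.2%. Neutrophil-like cells, which should lack antibody transcripts and had a median of 5160 UMIs, held an Igha UMI in 2.75% to 30.9% of cells by library, a Jchain UMI in 1.95% to 13.2%, and a Tnfrsf17 UMI in at most 0.305%. In 6 of the 69 cells no Jchain and at most 1 Igha UMI was detected.

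**Figure D1:**
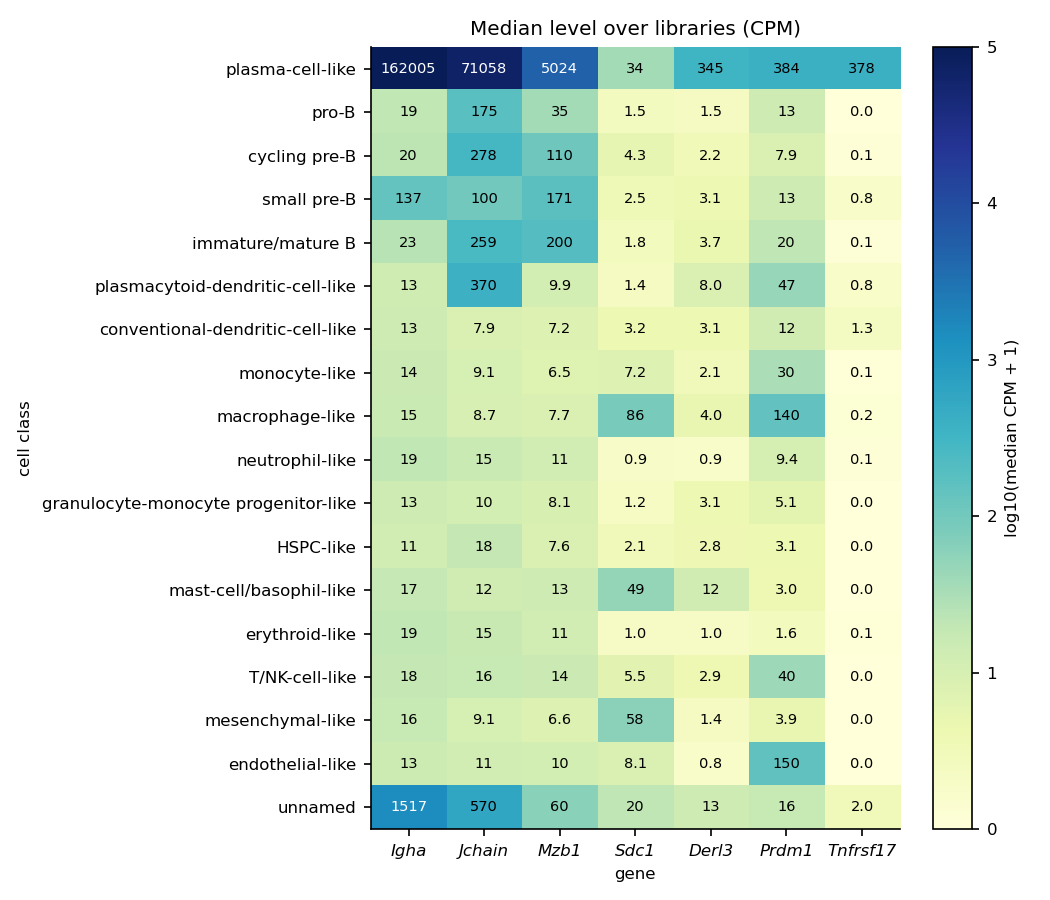
Level of the 7 genes in each cell class, as the median over libraries of CPM, printed in each cell and coloured by log10(median CPM + 1). Igha, Jchain, Mzb1, Derl3, Prdm1 and Tnfrsf17 had their highest median in the plasma-cell-like class, and Sdc1 in the macrophage-like class (86.2 CPM).

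Over the 8 libraries together Igha was the most abundant transcript of these cells. Its level was 154902 CPM in TO 2d 0h, 156361 in TO 2d 4h, 96567 in TO 4d 4h, 167649 in TO 4d 24h, 172078 in TOE 2d 4h, 107948 in TOE 2d 24h, 218811 in TOE 4d 4h and 202930 in TOE 4d 24h. Igha exceeded Jchain in every library but TOE 2d 24h, and the ranges of all other classes lay far below. In the median cell Igha made up 15.8% of the UMIs, and in the highest cell 41.4%. The class with the next highest median, the unnamed cells, had 1517 CPM, a value that fell to 27.0 when barcodes with 10 or more Igha UMIs were left out. It held 15 cells with UMIs of at least 5 of the 7 genes, whose median depth was 18231 UMIs.

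Jchain ranked second among all transcripts of the class, and Mzb1, a chaperone that assists the assembly and secretion of IgM and IgA, ranked 11th. Jchain was at 115652 CPM in TO 2d 0h, 31723 in TO 2d 4h, 21217 in TO 4d 4h, 115905 in TO 4d 24h, 22087 in TOE 2d 4h, 110392 in TOE 2d 24h, 28046 in TOE 4d 4h and 160332 in TOE 4d 24h. The 4 libraries collected at 4 h were thus the lowest, with no overlap with the other 4. Mzb1 had a median of 5024 CPM (4097 to 9934) and did not overlap with any other class. Among the other 8 transcripts of the leading 10 were 2 constant regions without a gene name, LOC120093161 with 21783 CPM and LOC103692723 with 5423 CPM. Of its 5243 UMIs, 2360 and 2621 came from a pair of cells.

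Tnfrsf17 and Derl3 were lower by orders of magnitude, and their ranges did not overlap with those of other classes either. Tnfrsf17 was at 358 CPM in TO 2d 0h, 177 in TO 2d 4h, 1190 in TO 4d 4h, 265 in TO 4d 24h, 481 in TOE 2d 4h, 398 in TOE 2d 24h, 347 in TOE 4d 4h and 421 in TOE 4d 24h. No other class had a median above 1.96 CPM, and the highest single value elsewhere was 71.2 CPM, in unnamed cells. Derl3, a derlin that helps to retrotranslocate misfolded proteins from the endoplasmic reticulum, had a median of 345 CPM (155 to 505) and no overlap with the next classes, unnamed (13.2), mast-cell/basophil-like (11.8) and plasmacytoid-dendritic-cell-like (7.96).

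Prdm1 and Sdc1 were shared with other cells of the site. Prdm1 had a median of 384 CPM in the plasma-cell-like class (42.1 to 513), 150 in endothelial-like cells (110 to 222), 140 in macrophage-like cells (60.9 to 213), 46.8 in plasmacytoid-dendritic-cell-like cells and 40.0 in T/NK-cell-like cells. The ranges of the first 3 classes overlapped, the lowest plasma cell values being those of TOE 4d 24h, with its single cell, and of TO 4d 4h (80.7). For Sdc1 the order was macrophage-like (86.2, 40.6 to 157), mesenchymal-like (58.1), mast-cell/basophil-like (48.9) and plasma-cell-like (34.3, 0 to 101), and each of these ranges overlapped with the next. The 69 cells held 39 Sdc1 UMIs in all, of 11551 in the series.

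The 7 genes therefore differed in how much of their transcript lay in the plasma cells. Over all libraries the class held 63.7% of the Igha UMIs (63.5 to 63.9), 48.0% of Tnfrsf17 (44.5 to 51.5), 36.7% of Jchain (36.5 to 36.9), 9.64% of Derl3 (8.63 to 10.7), 6.16% of Mzb1 (5.99 to 6.32), 1.93% of Prdm1 (1.74 to 2.13) and 0.338% of Sdc1 (0.240 to 0.461). The library with the lowest Igha share was TOE 2d 4h (39.3%) and that with the highest TOE 4d 4h (83.6%). For Jchain the lowest share was 13.6%, in TOE 4d 24h, and the highest 58.4%, again in TOE 4d 4h.

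Of the 69 cells of the class, 55 were assigned to IgA. A cell was assigned to a heavy chain when that chain made up at least 80% of at least 20 heavy chain UMIs. Heavy chain UMIs were those of Igha, LOC103692723 and LOC103690146. No other heavy chain constant region was counted, so a cell of an isotype outside these genes would show few such UMIs. On that rule 55 cells carried Igha, 2 carried LOC103692723, 1 carried LOC103690146, and 11 had under 20 heavy chain UMIs. The 2 unnamed genes are constant regions without a symbol in RefSeq, whose annotated spans overlap, so reads could be divided between them and their isotypes are not given here. The Igha cells held little of the other 2 genes, with a median of 100% of the heavy chain UMIs counted from Igha and 93.5% in the lowest. Each of the 55 held Jchain, with a median of 674 UMIs (17 to 4349), or 4.16% of the cell's UMIs (0.297 to 21.2). The cells with another heavy chain held Jchain too, with 717 UMIs in the LOC103690146 cell and 95 and 679 in the LOC103692723 cells. Of the 11 cells with under 20 heavy chain UMIs, 5 held 49 to 1025 Jchain UMIs and 4 to 249 Mzb1 UMIs but at most 4 of Igha. These 5 cells had a median depth of 13704 UMIs (3185 to 16179), and the other 6, which held no Jchain, one of 1978 UMIs (553 to 5823).

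The upstream sequences of Derl3 and Jchain are shown because both genes belong to the secretory program, in which XBP1 binds the core CCACG. Upstream windows were read for 5 of the 7 genes, and Igha and Mzb1 were not matched in the RefSeq table used here. The 250 bases before the annotated start are given 5′ to 3′ on the gene's strand from RefSeq assembly GRCr8, at chr20:12766466-12766715 (minus strand) for Derl3 and chr14:19822726-19822975 (plus strand) for Jchain, with matches to CCACG on either strand (CGTGG on the other) in capitals.
Derl3: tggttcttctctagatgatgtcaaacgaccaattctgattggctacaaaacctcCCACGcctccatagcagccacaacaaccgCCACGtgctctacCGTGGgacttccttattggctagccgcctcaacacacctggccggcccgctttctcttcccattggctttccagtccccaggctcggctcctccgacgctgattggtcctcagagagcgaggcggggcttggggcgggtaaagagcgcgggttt
Jchain: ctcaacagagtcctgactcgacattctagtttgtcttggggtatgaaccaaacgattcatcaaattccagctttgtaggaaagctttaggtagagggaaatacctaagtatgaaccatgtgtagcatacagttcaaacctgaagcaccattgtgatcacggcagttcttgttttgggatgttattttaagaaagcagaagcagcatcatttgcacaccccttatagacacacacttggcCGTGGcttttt
Derl3 held 3 matches, between 154 and 196 bases before its start, Prdm1 held 2, Jchain held 1 at 11 bases before its start, and Sdc1 and Tnfrsf17 held 0. At least 1 match was found in 27.2% of the 33469 upstream windows of the same length, and 3 or more in 1.70%. The octamer ATGCAAAT, searched on both strands, was found in none of the 5 windows and in 1.56% of all. Such matches are descriptions of letters in a window, not sites of binding.

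The rest of the secretory machinery was raised with these genes. Against the pooled B-cell-like cells, 1330 of 19222 genes with enough UMIs (6.92%) were at least 2-fold higher in the plasma-cell-like cells on the log2(CPM + 1) scale and 6929 (36%) at least 2-fold lower, with a median log2 difference of -0.62. These are pooled values with no test. All 7 genes were higher, with log2 differences of 10.38 for Igha, 8.24 for Jchain, 8.19 for Tnfrsf17, 6.41 for Derl3, 5.15 for Prdm1, 4.92 for Mzb1 and 3.36 for Sdc1. Of 30 secretory pathway genes 29 were higher, with a median of 2.67 and Tram1 (0.69) as the exception. Because 7 of the 30 had served to name the class, the other 23 were counted alone, and 22 of them were higher, with a median of 2.41. The most abundant of the list were Ssr4, a subunit of the translocon-associated complex (4270 CPM against 204), the chaperone Hsp90b1 (2252 against 209), the disulfide isomerase Txndc5 (1807 against 46.1) and the signal peptidase subunit Sec11c (1338 against 39.8). Ssr4, Txndc5 and Sec11c were among the naming markers.

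The genes of B cell identity were lower in 11 of 12 cases. Cd79a, part of the B cell receptor, was at 792 CPM in the plasma-cell-like cells and 1810 in the B-cell-like cells, the transcription factor Ebf1 at 423 and 8143, and Bach2, a repressor of Prdm1, at 304 and 3326. Cd74, the invariant chain, was higher instead, with 4425 against 723 CPM. Of 14 measured genes of plasma cell regulation and survival, 5 were higher and 2 lower, but 4 of the 5 (Ell2, Tent5c, Eaf2 and Slamf7) had served to name the class. Of the 7 that were not on the marker list, 1 was higher, Tnfrsf13b, and 1 lower, Tnfrsf13c. Ell2, an elongation factor of secretory heavy chain processing, was at 1085 against 323 CPM, Tent5c, a poly(A) polymerase, at 793 against 35.6, and Tnfrsf13b (TACI), another APRIL receptor, at 368 against 21.6. Pou2af1, a B cell coactivator, had 520 against 289 CPM and the transcription factor Irf4, also a naming marker, 126 against 212 CPM, lower in 8 of 8 libraries, both within 2-fold. Cd38 (8.27 against 48.8) and the BAFF receptor Tnfrsf13c (20.7 against 202) were the 2 that were lower. Of the 36 immunoglobulin genes named by symbol, 5 had enough UMIs, with 2 higher (Igha and Iglc1) and 2 lower. Of 4 transcripts of erythroid cells and neutrophils, Hba-a1 was higher (857 against 418 CPM), and Hbb-bs, S100a8 and S100a9 had log2 differences of 0.61, 0.83 and 0.65. The part of RNA from such cells in the values was not tested.

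The ligands of these receptors were found mainly in other cells. Tnfsf13 had a median of 194 CPM in monocyte-like cells, 176 in granulocyte-monocyte progenitor-like cells, 97.7 in macrophage-like cells and 95.4 in neutrophil-like cells. In the plasma-cell-like class the median was 0 (0 to 16.5, 7 UMIs in all). Tnfsf13b was sparse, with no class above a median of 3.63 CPM. Cxcl12 was found mainly in endothelial-like (193 CPM) and mesenchymal-like cells (130 CPM), while its receptor Cxcr4 had a median of 237 CPM in the plasma cells (42.1 to 347). Cxcr4 was higher in several other classes, among them immature/mature B (734 CPM), small pre-B (675 CPM) and cycling pre-B cells (404 CPM). Over the 42 clusters of all libraries together, and 18749 genes, the gene whose log2(CPM + 1) was most like Tnfrsf17 was LOC362382, a variable segment (Pearson's r = 0.958). For Igha it was Tnfrsf17 (0.857), for Jchain Ccr10, a chemokine receptor of IgA plasma cells (0.829), for Mzb1 Tnfrsf13b (0.855), for Derl3 and Prdm1 Myl4 (0.862 and 0.839), and for Sdc1 Inf2 (0.730). The clusters share libraries, and the plasma cell cluster is the extreme point for all but Sdc1.

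Jchain was also a transcript of B cell precursors. Its level moved up, down and up again along the stages, taking the median over libraries from 175 CPM in pro-B (51.7 to 427) to 278 in cycling pre-B (114 to 665), 99.5 in small pre-B (21.4 to 337) and 259 in immature/mature B cells (69.9 to 686). The stages were compared with edgeR's quasi-likelihood test with the library as a block, over 16541 genes with Benjamini-Hochberg adjustment, in all 8 libraries. Between cycling pre-B and pro-B cells, where 31.9% of all genes were called higher and 23.9% lower, 4 of the 7 genes were called. Jchain rose by 0.80 (SE 0.21, adjusted p = 0.00164), Mzb1 by 1.87 (SE 0.11, adjusted p = 1.11e-14) and Sdc1 by 1.72 (SE 0.30, adjusted p = 9.9e-06) on the log2 scale, and Prdm1 fell by 0.76 (SE 0.12, adjusted p = 4.98e-06). Without the block the rise of Jchain missed the threshold, at 0.73 with an adjusted p of 0.337 from edgeR, the libraries differing widely among themselves.

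Between small pre-B and cycling pre-B cells, with 34.9% of all genes higher and 35% lower, all 7 genes passed. Jchain fell by 1.54 (SE 0.20, adjusted p = 7.16e-08 by edgeR's test) and Sdc1 by 1.03 (SE 0.18), while Mzb1 rose by 0.82 (SE 0.09), Prdm1 by 0.75 (SE 0.10) and Derl3 by 0.54 (SE 0.13). With no genes left out of the clustering 4 of the 7 passed, and Derl3 was at 0.21 (edgeR adjusted p = 0.212), Igha at 0.73 (0.423) and Tnfrsf17 at -1.07 (0.0943). Igha differed by 3.01 (SE 0.59) and Tnfrsf17 by 2.31 (SE 0.48), but both rested on few barcodes. When barcodes with 10 or more Igha UMIs were left out, the difference of Igha was 0.64 (SE 0.09) and Tnfrsf17 had too few UMIs to be fitted, while Jchain fell by 2.28 (SE 0.11). The level of Igha in small pre-B cells was then 21.5 CPM (8.59 to 39.9), beside 18.8 (4.92 to 50.3) in neutrophil-like cells.

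From small pre-B to immature/mature B cells, with 23.3% of all genes higher and 24.4% lower, 3 of the 7 genes were called, all higher. Jchain rose by 1.15 (SE 0.21, adjusted p = 2.53e-05 by edgeR's test), Prdm1 by 0.73 (SE 0.10, adjusted p = 3.33e-07) and Derl3 by 0.36 (SE 0.14, adjusted p = 0.0406). The call of Derl3 was lost without any of 6 libraries, TO 2d 0h, TO 2d 4h, TO 4d 4h, TOE 2d 4h, TOE 2d 24h or TOE 4d 4h, with an adjusted p of up to 0.148. That of Jchain was lost without the block (1.09, adjusted p = 0.159), and without the Igha-rich barcodes it was 1.72 (SE 0.11). Mzb1 differed by -0.08 (SE 0.10). Genes were called lower in other settings only. Igha was so with DESeq2 (-1.75, adjusted p = 0.00915), and by edgeR with no filter on low counts (-1.42, 0.0104) and without TOE 2d 4h (-2.41, 2.83e-05). By edgeR, Tnfrsf17 was called without TOE 2d 4h (-2.55, adjusted p = 0.00244), Sdc1 at resolution 2 (-0.60, 0.0303) and Mzb1 without TOE 4d 24h (-0.21, 0.0166). Outside the B lineage, plasmacytoid-dendritic-cell-like cells had a Jchain median of 370 CPM (88.9 to 718), above that of every B cell stage but with an overlapping range, and neutrophil-like cells had 14.6 CPM (3.25 to 31.4).

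**Figure D2:**
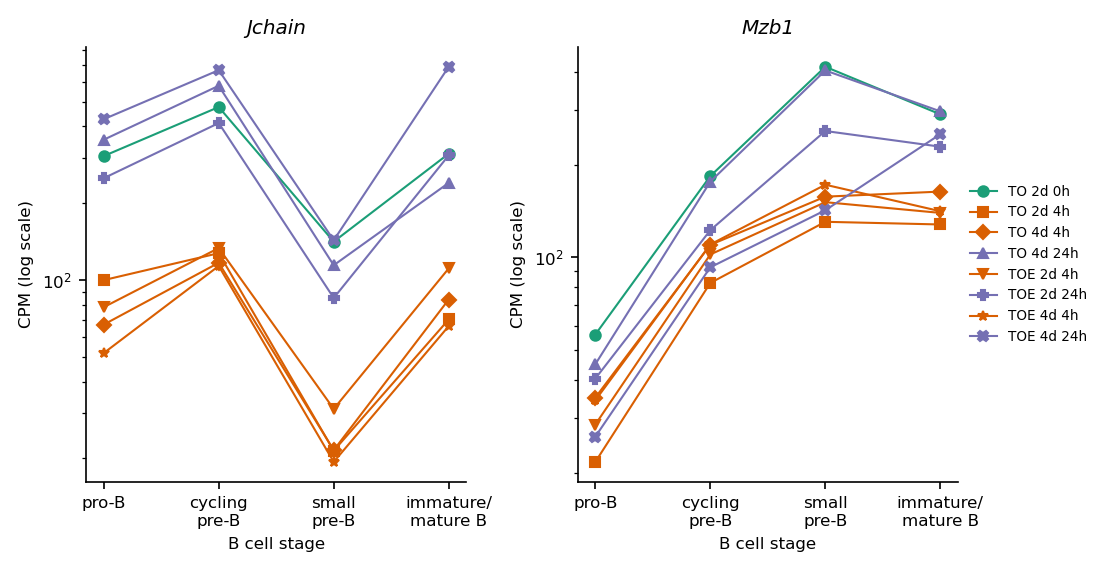
Jchain and Mzb1 (CPM, log scale) in 4 B cell stages, 1 line per library, without barcodes of 10 or more Igha UMIs. Green, orange and violet mark 0, 4 and 24 h. The Jchain lines fall into a lower group, the 4 libraries of 4 h, and an upper group at every stage, and in all of them Jchain is lowest in small pre-B cells.

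The spread between libraries in Jchain followed the hour of collection, a pattern that was seen in these values first. In pro-B cells Jchain was at 99.9 CPM in TO 2d 4h, 66.9 in TO 4d 4h, 78.3 in TOE 2d 4h and 51.7 in TOE 4d 4h. The other libraries had 306 (TO 2d 0h), 355 (TO 4d 24h), 251 (TOE 2d 24h) and 427 CPM (TOE 4d 24h). Those of 4 h lay below the other 4 without overlap in pro-B, cycling pre-B and small pre-B cells, in TO and in TOE alike. In immature/mature B cells TOE 2d 4h (277 CPM) lay above TO 4d 24h (240), but not without its Igha-rich barcodes (111). In an edgeR fit over 4 against 4 libraries the log2 difference of Jchain, 4 h against the others, was -2.22 in pro-B (SE 0.22), -2.18 in cycling pre-B (SE 0.16), -1.96 in small pre-B (SE 0.48) and -1.68 in immature/mature B cells (SE 0.46). Without barcodes of 10 or more Igha UMIs it was -2.40 and -2.26 in the last 2 stages. No p is given for Jchain, in which the division had been seen. Of all genes tested, 5.21%, 10.4%, 14.4% and 10.6% were called lower at 4 h in these stages, and 4.85%, 10.6%, 11.3% and 9.82% higher.

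The division by hour had been chosen after the Jchain values of these libraries were seen. The p-values below are thus not from a planned comparison. Mzb1 had differences of the same sign as Jchain and smaller size. Its log2 differences were -0.59 in pro-B (SE 0.24, edgeR adjusted p = 0.132), -0.59 in cycling pre-B (SE 0.21, 0.0751), -1.03 in small pre-B (SE 0.32, 0.0403) and -0.89 in immature/mature B cells (SE 0.15, 0.00453), so it passed in the last 2 stages. In small pre-B cells that call was lost without any library other than TOE 4d 24h (adjusted p up to 0.110 by edgeR's test) and with day as a covariate (0.0598), while in immature/mature B cells it held without each library in turn (up to 0.0215). Without TOE 4d 24h it was called in pro-B (-0.79, adjusted p = 0.00706) and cycling pre-B cells (-0.77, 0.00291) as well. Igha, Prdm1, Sdc1, Derl3 and Tnfrsf17 were not called in any stage in which they could be fitted.

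The same division was found inside the plasma cells. The ratio of Igha to Jchain UMIs over the cells of the class was 4.93 in TO 2d 4h, 4.55 in TO 4d 4h, 7.79 in TOE 2d 4h and 7.80 in TOE 4d 4h. The other libraries had ratios of 1.34 (TO 2d 0h), 1.45 (TO 4d 24h), 0.978 (TOE 2d 24h) and 1.27 (TOE 4d 24h, 1 cell). The groups did not overlap, and the mean log2 ratio was 2.29 higher at 4 h. The 4 libraries of 4 h ran from 21217 to 31723 CPM of Jchain and the others from 110392 to 160332, whereas Igha ran from 96567 to 218811 and from 107948 to 202930 CPM. The median ratio per cell gave a log2 difference of 2.11. No p is given for these differences, since the division by hour had been seen first. In plasmacytoid-dendritic-cell-like cells Jchain was at 88.9 to 154 CPM in the 4 libraries of 4 h and at 586 to 718 in the other 4. The hour of collection covers 0 h and 24 h together, each library is a separate sample, and the hour cannot be told apart from anything else that the libraries of 4 h shared.

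**Figure D3:**
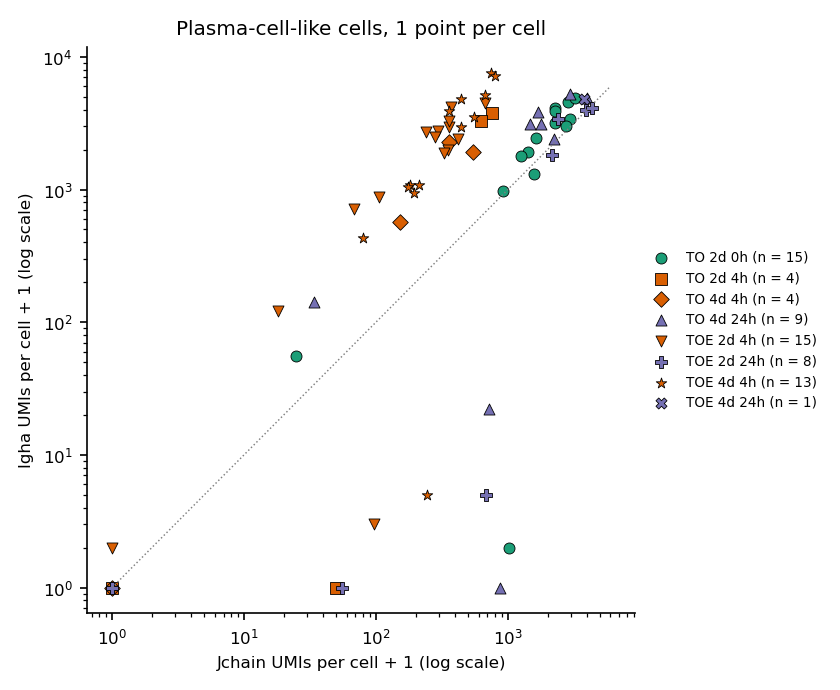
Igha against Jchain UMIs (each plus 1, log scales) in the 69 plasma-cell-like cells, 1 point per cell. Symbols mark the library and orange the 4 libraries of 4 h, and the dotted line marks equal counts. The orange cells lie at lower Jchain counts for like Igha counts.

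Igha was also found outside the plasma-cell-like class. The 69 cells of that class aside, 90461 of 249140 Igha UMIs lay in other barcodes. Of these, 72139 (79.7%) were held by 76 barcodes with 10 or more Igha UMIs, and 18322, or 7.35% of all Igha UMIs, were spread over 14992 barcodes with 1 to 9. At the other end, 77 barcodes with 500 or more, 51 of them in the plasma-cell-like class, held 91.3% of the Igha in the series. Igha counts were therefore split between a few very rich barcodes and a thin layer over many, with 54 barcodes between 5 and 9 and 38 between 10 and 49.

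The thin layer had a similar level in unlike cells of most libraries. Over neutrophil-like, erythroid-like, granulocyte-monocyte progenitor-like, monocyte-like, macrophage-like and T/NK-cell-like cells, without the rich barcodes, the highest class exceeded the lowest by 1.43 to 2.44 times in 7 libraries and by 7.61 times in TO 2d 4h, where the lowest class was T/NK-cell-like at 1.37 CPM. That class had 93 cells and 728443 UMIs in TO 2d 4h, so its level rests on very few Igha UMIs. Pooled over the 6 classes the Igha level was 29.8 CPM in TO 2d 0h, 7.83 in TO 2d 4h, 9.95 in TO 4d 4h, 20.3 in TO 4d 24h, 36.7 in TOE 2d 4h, 10.5 in TOE 2d 24h, 23.3 in TOE 4d 4h and 4.73 in TOE 4d 24h. The libraries thus differed more than the classes within most of them, with TOE 2d 4h highest and TOE 4d 24h, which had 1 plasma cell, lowest. As a share of cells thinned to 1000 UMIs, Igha was found in a median of 1.92% of neutrophil-like cells (0.525 to 5.09), against 8.88% before thinning, and in 2.15% of erythroid-like cells (0.428 to 4.75), against 19.2%.

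In the same 6 classes Jchain was at 28.1, 21.4, 14.3 and 18.4 CPM in TO 2d 0h, TO 4d 24h, TOE 2d 24h and TOE 4d 24h, and at 5.16, 4.22, 7.50 and 3.57 CPM in TO 2d 4h, TO 4d 4h, TOE 2d 4h and TOE 4d 4h. The 2 sets of libraries did not overlap (log2 difference -2.02), while Igha in these classes did overlap (log2 difference 0.29). The ratio of Igha to Jchain was 1.52 to 6.52 at 4 h and 0.257 to 1.06 otherwise. The level of Jchain in these classes was below that of pro-B cells in every library, and its part in the B cell values was not tested.

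**Figure D4:**
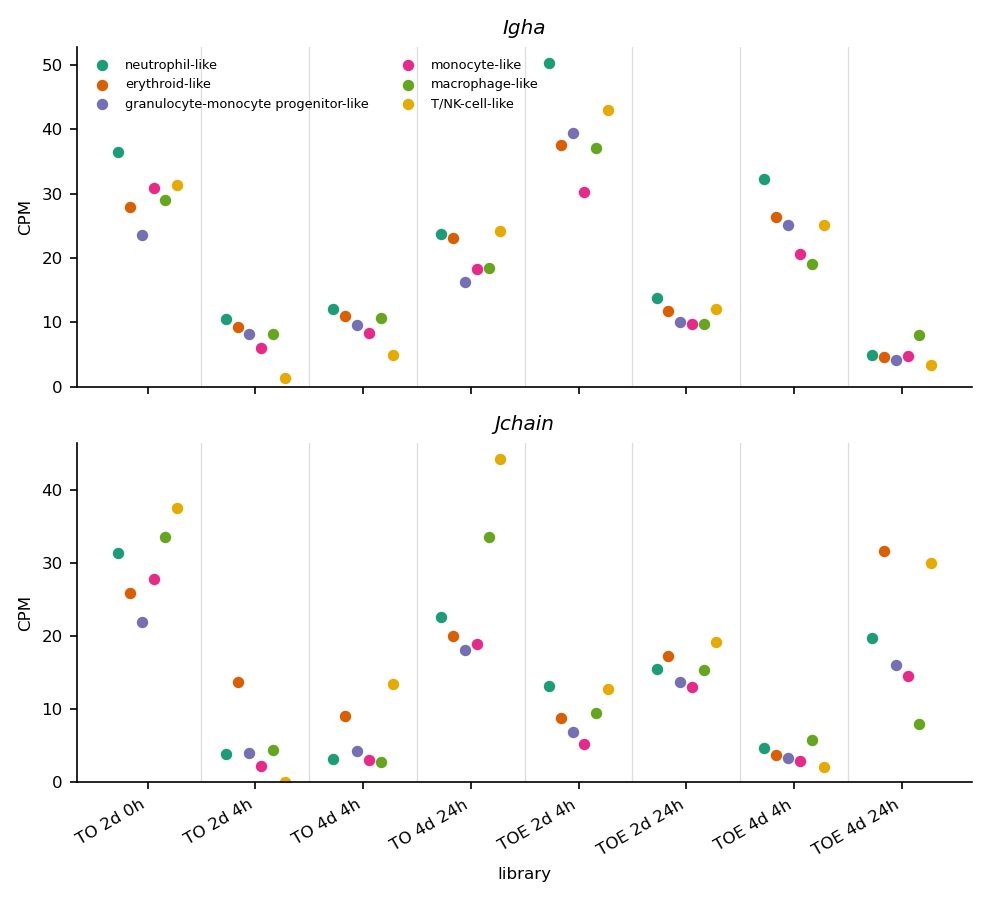
Igha and Jchain (CPM) in 6 cell classes outside the B lineage, by library, without barcodes of 10 or more Igha UMIs. Within most libraries the classes lie close together for Igha, and pooled levels were lowest in TOE 4d 24h (4.73 CPM) and highest in TOE 2d 4h (36.7 CPM).

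Some of the 76 rich barcodes outside the class also held other genes of the set. Of them, 71 held Jchain, 50 with 10 or more of its UMIs, and 43 held Mzb1. UMIs of at least 5 of the 7 genes were found in 30, and the highest held 12276 Igha UMIs. The 76 barcodes were placed among small pre-B cells (36 barcodes, 24045 Igha UMIs), unnamed cells (19, with 24499), immature/mature B cells (8, with 16855), cycling pre-B cells (6), monocyte-like cells (3), neutrophil-like cells (2), and erythroid-like and mesenchymal-like cells (1 each). Of the 36 among small pre-B cells, 34 held Jchain and 17 Mzb1. Over all small pre-B cells the shares by library were 5.96% to 32.0% for Jchain and 33.2% to 67.8% for Mzb1. TOE 2d 4h alone held 29 of the 76, with 42857 Igha UMIs. Whether such barcodes hold a plasma cell, another cell beside it or free RNA was not tested.

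Between TOE and TO libraries, Igha was the gene of the set that differed by more than 2-fold in each of the 3 pairs, in both directions. Over all cells kept it was at 577 CPM in TOE and 80.1 in TO at 2d 4h (7.2-fold, 7.05 to 7.36), at 4d 4h it was at 368 and 72.4 (5.08-fold, 4.96 to 5.20), and in the pair of 4d 24h at 73.8 and 327.6 (0.225-fold, 0.219 to 0.231). It was higher in TOE in both pairs of 4 h and lower in the pair of 24 h, and the number of plasma-cell-like cells ran the same way, with 15 against 4, 13 against 4 and 1 against 9. Within these cells the level of Igha was 172078 against 156361 CPM at 2d 4h, 218811 against 96567 at 4d 4h and 202930 against 167649 at 4d 24h, so in the last pair it was not lower in the single TOE cell. Over all barcodes as deposited, doublets included, the ratios of Igha over whole libraries were 4.00-fold, 2.55-fold and 0.207-fold. Outside the plasma-cell-like class and without the rich barcodes the log2 ratios of Igha were 1.99, 1.33 and -2.02. The leading barcode alone held 13.7% (TO 4d 24h) to 71.8% (TOE 4d 24h) of the Igha UMIs of a library in these pairs. The intervals of the Igha ratios do not cover this clumping of UMIs in single barcodes. With 1 library per condition no test between the arms was run.

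Jchain differed less, with 2.19-fold (2.13 to 2.26), 1.42-fold (1.37 to 1.47) and 0.731-fold (0.720 to 0.742) in these pairs. Outside the class and without the rich barcodes its ratios were 1.54-fold (1.48 to 1.60), 0.688-fold (0.657 to 0.721) and 1.32-fold (1.30 to 1.34), so its direction turned at 4d 4h and at 4d 24h. Tnfrsf17 followed Igha at 2d 4h with 6.37-fold (4.11 to 10.3, 179 against 23 UMIs) and at 4d 24h with 0.139-fold (0.0772 to 0.233, 16 against 149 UMIs), but had 0.811-fold (0.594 to 1.11) at 4d 4h. Over all barcodes as deposited its ratio at 2d 4h was 1.79-fold (1.37 to 2.35, 181 against 83 UMIs) and no longer past 2-fold. Prdm1 was at 0.502-fold (0.472 to 0.533), 1.38-fold (1.31 to 1.46) and 0.217-fold (0.194 to 0.243), and Sdc1 at 1.87-fold, 2.69-fold (2.50 to 2.88) and 1.00-fold (0.856 to 1.17). In the libraries of these pairs at most 4.44% of the Prdm1 UMIs and 0.8% of the Sdc1 UMIs lay in plasma cells, so these ratios describe mainly other classes. Mzb1 was at 1.73-fold, 0.880-fold and 0.468-fold, and Derl3 at 1.76-fold, 1.37-fold and 0.667-fold.

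Counted at an absolute log2 ratio of at least 1, 3 of the 7 genes were past the fold at 2d 4h (Igha, Jchain and Tnfrsf17), 2 at 4d 4h (Igha and Sdc1) and 4 at 4d 24h (Igha, Mzb1, Prdm1 and Tnfrsf17). Of all genes with at least 50 UMIs over the pair, 9.82%, 4.69% and 22.7% were past it in the same order of pairs. Over all barcodes as deposited, 2 of the 7 were past it at 2d 4h, Igha upwards and Prdm1 downwards (0.492-fold), and Jchain was at 1.63-fold. Beyond the plasma cells and the rich barcodes, Igha and Prdm1 were past the fold at 2d 4h, Igha and Sdc1 at 4d 4h and Igha, Mzb1 and Prdm1 at 4d 24h, against 9.76%, 4.69% and 22.7% of all genes. Tnfrsf17 was no longer counted there because under 50 UMIs were left.

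**Figure D5:**
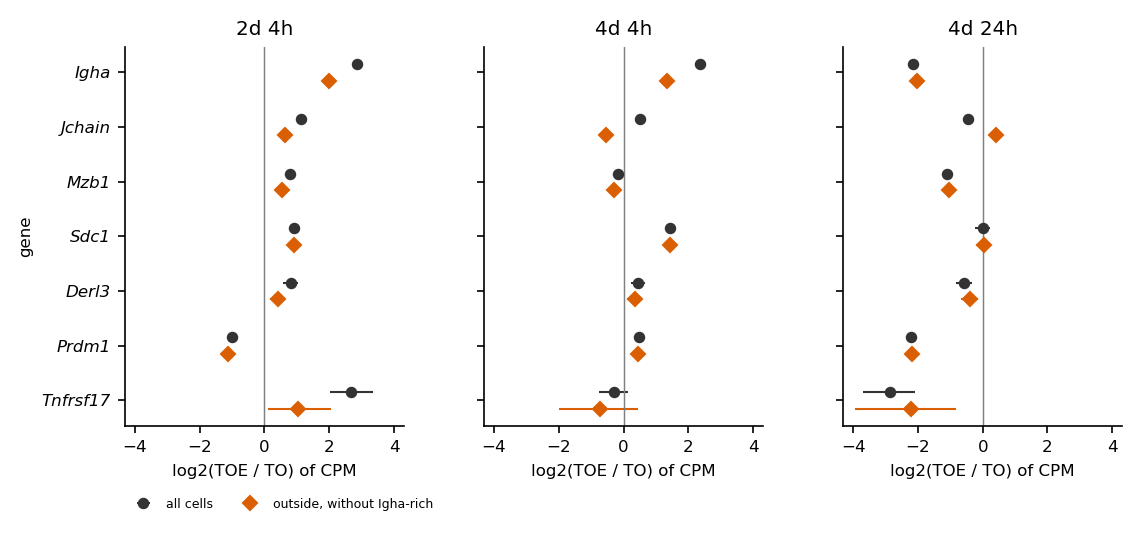
Ratio of TOE to TO (log2 of CPM) for the 7 genes in the 3 matched pairs, over all cells (dots) and outside the plasma-cell-like class without barcodes of 10 or more Igha UMIs (diamonds). Bars are 95% intervals for counting error, with each UMI taken as a separate draw, and are narrower than the symbol for abundant genes. Igha lies at 2.85, 2.35 and -2.15 over all cells.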

How the data were processed

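Single-cell RNA was measured in 8 libraries, 1 per condition. The deposited matrices hold raw UMI counts per gene and barcode, which the authors made with Cell Ranger 9.0.0, per the labels' processing notes, which name the genome build mRatBN7.2 among others. Cells were required to have 200 genes detected and no more than 20% of UMIs from the mitochondrion, and those scoring above 0.25 in Scrublet (expected doublet rate 8%) were taken out. Counts were scaled to 10000 per cell, 2000 variable genes were taken without the 7 genes and the immunoglobulin genes named by symbol, and 30 principal components and 15 neighbours were used for Leiden clustering (scanpy 1.11.5) at resolution 1. With the main random seed no plasma-cell-like cluster was found at resolutions 1 and 2, so the one at resolution 4 was used, and the cluster that held it was split into its parts. Another seed gave such a cluster at resolution 2 (67 cells). Classes were named from marker lists, B cell stages likewise, and cells of clusters whose median depth was below that of their samples divided by 3, with no marker of the best list among the leading 10 genes, are called unnamed, as are cells of the split cluster outside its parts. Stages were compared with edgeR 4.0.16 (quasi-likelihood, TMM, filterByExpr, adjusted p below 0.05) on counts summed per library and stage of at least 20 cells. The comparison by hour was added after the data were seen. The genes, lists and markers were chosen with earlier results of these data known. Genes named from the lists are those most abundant in the plasma-cell-like class or outside the list's main direction, the latter and the barcode counts being chosen after their values were seen. Where a level is given without rich barcodes, those with 10 or more Igha UMIs were left out. Libraries held 95954800 UMIs or more, and rare genes such as Tnfrsf17 (819 UMIs in all) have wide intervals. Each library is taken as a separate sample, and p-values measure only the spread between these samples.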

Additional observations from a re-analysis of the deposited data

Results flagged for a closer look

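Igha was flagged because its ratio of TOE to TO ran in opposite directions in different pairs. Over all cells its log2 ratio was 2.85 at 2d 4h and 2.35 at 4d 4h but -2.15 at 4d 24h, and outside the plasma-cell-like class it was 4.43, 1.02 and -2.69. With 1 library per condition the difference was not tested.

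The barcodes removed as doublets, left out of the main comparisons, were flagged because 19 of 3796 (0.501%, 0.302 to 0.781) held 10 or more Igha UMIs, against 132 of 111646 barcodes kept (0.118%, 0.0989 to 0.140). They held 19666 Igha UMIs, and 26 of the removed barcodes had UMIs of at least 5 of the 7 genes. The barcodes removed as doublets were deeper, with a median of 10257.5 UMIs against 4881 in those kept, so the shares are not at equal depth. Whether the rich ones hold plasma cells or pairs of cells was not tested. Of the 1269 barcodes removed by the filter 0 were as rich, which allows a share of up to 0.236% when 3 counts are taken as the limit of a count of 0.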

How the results depend on the processing

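No plasma-cell-like cluster was found with the filter of 500 genes and 10% mitochondrial UMIs or, with the main seed, at resolution 2. These gave no values for the class. With another seed the cluster was found at resolution 2, with 67 cells, all among the 69. The class held 166 cells with doublets kept (66 of the 69 among them) and 198 when it was taken as cells with at least 5 of the 7 genes (59 shared). The Igha share in the class was 69.3% with no genes left out of the clustering, 67.7% with doublets kept and 91.6% on 5 of 7 genes, and for Jchain 37.5%, 39.5% and 48.8%. Leaving out 1 library at a time gave 59.0% to 74.8% for Igha and 31.8% to 40.6% for Jchain. The set on 5 of 7 genes was chosen by the measured genes themselves, so its shares are not independent of that choice. Among its 198 cells were 34 cycling pre-B, 27 macrophage-like and 18 mesenchymal-like cells, so it is not another form of the plasma-cell-like cluster. Without the library block Jchain differed by 0.73 between cycling pre-B and pro-B and by 1.09 between immature/mature and small pre-B cells, both past the threshold no longer, and the genes called in the latter numbered 1. With no genes left out of the clustering 7 were called between cycling pre-B and pro-B and 4 between small and cycling pre-B, where Tnfrsf17 turned to -1.07 (edgeR adjusted p = 0.0943), and the cause was not tested. Without each library in turn, 4 to 5, 7 to 7 and 2 to 4 genes were called in the 3 stage comparisons, with Jchain at 0.73 to 0.85, -1.61 to -1.36 and 1.01 to 1.38. By hour, the log2 difference of Jchain over the 4 stages was -2.44 to -2.07, -2.28 to -2.08, -2.43 to -1.44 and -2.38 to -1.32. The log2 difference in the ratio of Igha to Jchain was 2.17 to 2.43. Thinning to 2000 UMIs gave an Igha share of 3.77% in neutrophil-like and 4.20% in erythroid-like cells, since more UMIs were drawn per cell. The log2 ratio of Igha between TOE and TO was 2.00, 1.35 and -2.28 over all barcodes as deposited, -2.19 at 4d 24h without haemoglobin and mitochondrial genes, and 1.99, 1.33 and -2.02 outside the class without rich barcodes, where 2 genes were past the fold at 2d 4h. Over all 825 values recomputed, 708 were counted as unchanged, since they kept their side of the threshold or moved by less than the limit set. A change of sign was counted as unchanged where the gene was called in neither setting, so not all of these kept their direction. A fit of a common difference between the arms, with the time point as a block, was not run.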
